A study of Mus musculus with 2 samples.

Results

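The 42 genes described here run the mammalian cell division cycle and its DNA replication, and they were measured in the cytosol of mouse macrophages. They were chosen by symbol as widely used cell cycle genes, and all 42 were found, each as a single gene among 55536 annotated genes, of which 22028 are protein-coding. Each gene was placed in a class by the phase in which its protein is best known to act, which gave 14 G1 genes, 13 S genes and 15 mitotic genes. The series holds 1 group of 2 libraries. Both came from C57BL/6J bone-marrow-derived macrophages, primary cells grown from marrow, that had received lipid A, the Toll-like receptor 4 agonist of bacterial lipopolysaccharide, at 100 ng/ml for 75 minutes. The cytosolic fraction was taken, ribosomal RNA was depleted, and 1 µg of RNA went into each library of total RNA. Sex and age are recorded as not collected, no untreated cells or other fractions were analysed here, and the labels give both replicates the same donor entry and leave unsaid whether each had its own animal or culture. The spread between the replicates may therefore be technical.

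Cells leave G1 when D-type cyclins with CDK4 or CDK6, and then E-type cyclins with CDK2, phosphorylate the retinoblastoma protein and free E2F factors, which switch on the genes of S phase. Licensing factors load the MCM helicase on origins before S phase, the PCNA clamp holds polymerases on DNA during it, and cyclin B with CDK1 then drives mitosis, which ends when the CDC20-bound anaphase-promoting complex marks cyclin B for destruction. CDK inhibitors such as p21, the product of Cdkn1a, and p27, the product of Cdkn1b, hold the cycle in check. Marrow precursors divide under M-CSF as they become macrophages, and mature macrophages can stop dividing when they meet microbial products. These facts are background, and with 1 group and 2 libraries no comparison of conditions and no test between groups is possible. Every error below is the SD over 2 libraries, and no p-value is given.

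Of the 42 genes, 26 (61.9%) reached a mean of 1 TPM, a level per transcript length on a common total that can be compared between genes, beside 39.3% of all protein-coding genes. By class the count was 11 of 14 G1 genes, 10 of 13 S genes and 5 of 15 mitotic genes. The G1 genes had median levels of 3.38 and 3.30 TPM in replicates 1 and 2, the S genes 2.27 and 2.84 TPM, and the mitotic genes 0.76 and 0.87 TPM. Over all protein-coding genes the medians were 0.10 and 0.11 TPM. The G1 and S classes thus lay close together in both libraries, and the mitotic class lay below both in each. On the log2(TPM + 0.1) scale the mitotic minus G1 difference of medians was −1.91 ± 0.15 (3.76-fold lower, SD, n = 2) and the mitotic minus S difference −1.53 ± 0.10 (2.89-fold lower). The S minus G1 difference was −0.38 ± 0.24 (1.30-fold lower), and its size in replicate 1 (−0.55) was over 2 times that in replicate 2 (−0.21). This order rests on the low genes. Among the 26 genes at 1 TPM or more, the mitotic minus S difference turned to 0.25 ± 0.21 and the mitotic minus G1 difference shrank to −0.34 ± 0.65. That filter acts on level itself and drops 10 of the 15 mitotic genes, so a higher mitotic median is built in. The placing of the G1/S genes changes the gaps too. With Ccne1, Ccne2, Cdk2, E2f1 and E2f2 counted as S genes, the S minus G1 difference was −1.82. The mitotic minus G1 difference was then −3.03. The range within a class was far wider than the gap between classes, with mean levels from 0.235 to 312 TPM in G1, from 0.27 to 62.7 TPM in S and from 0.465 to 17.6 TPM in the mitotic class.

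**Figure D1:**
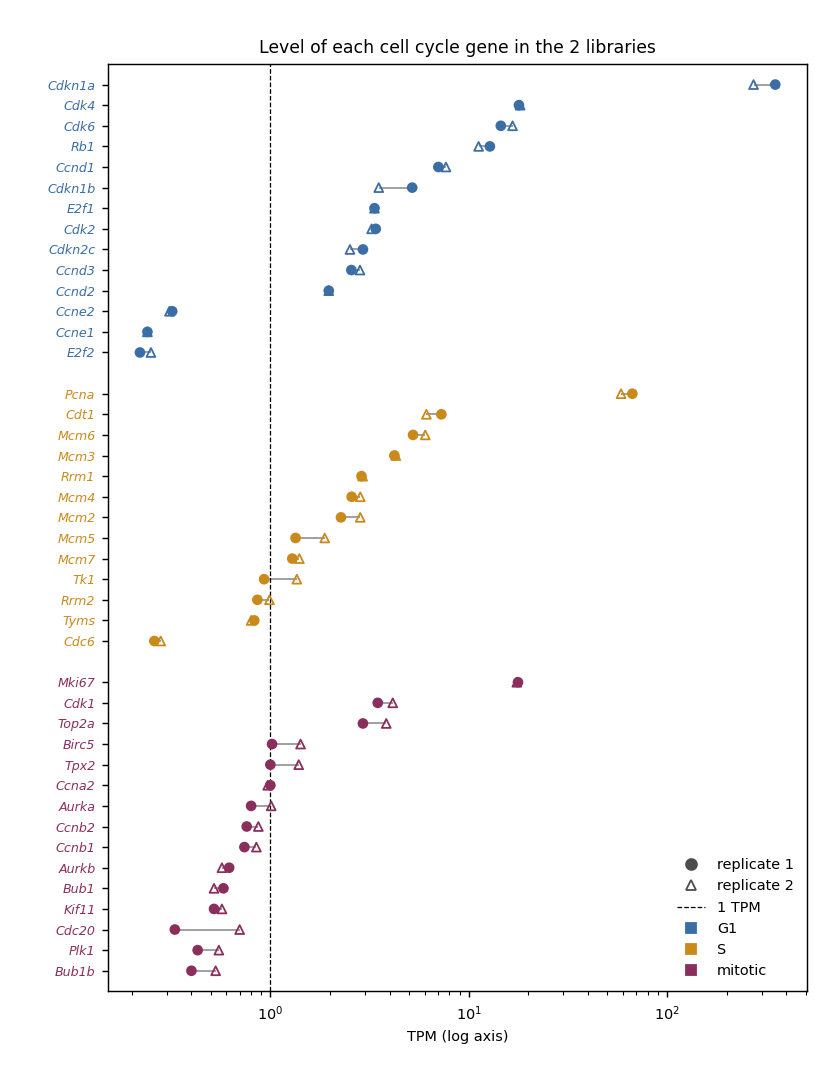
Level of each of the 42 genes in TPM (log axis) in replicate 1 (filled circles) and replicate 2 (open triangles), ordered within the G1, S and mitotic classes by mean level, with a dashed line at 1 TPM. Cdkn1a, Pcna and Mki67 each stand apart at the top of their class, and 10 of the 15 mitotic genes have means below 1 TPM.

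The libraries held 55596607 and 50157111 expected counts over genes in replicates 1 and 2. In the first of 2 deposited quantifications, used unless stated, the noncoding 7SL RNA took 69.8% and 60.5% of all TPM. Nuclear-encoded protein-coding genes shared only 21.6% and 21.9% there. A TPM value here therefore corresponds to 4.63 and 4.58 times as much on a scale of protein-coding genes alone (the coding scale). On it all 42 genes reached 1 TPM, and the share of all protein-coding genes that did was not computed. In the second quantification 7SL took 29.0% and 18.1% of TPM, and the factors to the coding scale were 9.02 and 11.6. Raw TPM values of the 2 quantifications are therefore not on the same scale. All 10 macrophage markers were above 1 TPM, led by Lyz2 (4227 and 4111 TPM) and Cd68 (534 and 659 TPM), so the defining genes of the labelled cell type were present. None of 12 marrow progenitor markers reached 1 TPM, and their summed level was 1.45 and 2.43 TPM, led by Meis1 (0.39 and 0.43 TPM) and Prtn3 (0.27 and 0.51 TPM). Of 10 neutrophil precursor markers, 6 reached 1 TPM (sum 36.5 and 41.1 TPM), led by S100a9 and S100a8. Among erythroid and megakaryocyte markers it was 1 of 12 (Epor, with Ppbp next; sum 1.20 and 2.70 TPM), with Hba-a2, Hbb-bt, Alas2 and Car1 among those at 0 in both libraries. Among lymphocyte markers it was 1 of 12 (Ighm, with Cd79b next; sum 3.08 and 2.89 TPM), with Cd3g and Gzma among those at 0. Among stromal and endothelial markers it was 2 of 12 (Vcam1 and Kdr; sum 12.7 and 22.3 TPM), with Col3a1 and Lum at 0. These marker levels are raw TPM, and on the coding scale they are higher by the same 4.63 and 4.58 times. The markers counted at 1 TPM therefore depend on the scale, and those counts on the coding scale were not computed. In bulk RNA, a few cells rich in a transcript cannot be told apart from many cells with a little of it, which bears on every level below.

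The start regions of these genes carry letters that the choice of genes did not use, and 6 of them are shown because they belong to the genes on which the levels turn. The windows run from 250 bases before to 50 bases after an annotated start and come from RefSeq on GRCm38.p6; 34 of the 42 genes matched the table, with 39 windows. The searched motifs, on both strands, were an E2F site (TTTCGCGC, TTTGGCGC, TTTCCCGC or TTTGCCGC), the cell cycle homology region or CHR (TTTGAA or TTCGAA), which the MuvB complex binds, and the CCAAT box (CCAAT), which NF-Y binds. Forward and reverse forms of the E2F site can overlap each other. Capitals mark these letters, and each sequence reads 5′ to 3′ on the gene's strand. The windows are Cdkn1a at chr17:29093519-29093818 (plus strand), Pcna at chr2:132253131-132253430, Mcm6 at chr1:128359656-128359955, Mki67 at chr7:135716330-135716629, Cdk1 at chr10:69352863-69353162 and Cdc20 at chr4:118437294-118437593, the last 5 on the minus strand.
Cdkn1a: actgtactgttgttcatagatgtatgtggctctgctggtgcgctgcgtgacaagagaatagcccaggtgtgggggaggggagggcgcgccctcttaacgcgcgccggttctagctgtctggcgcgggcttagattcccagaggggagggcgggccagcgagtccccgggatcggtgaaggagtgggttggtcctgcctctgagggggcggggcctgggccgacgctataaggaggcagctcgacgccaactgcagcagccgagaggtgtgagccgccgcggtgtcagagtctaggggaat
Pcna: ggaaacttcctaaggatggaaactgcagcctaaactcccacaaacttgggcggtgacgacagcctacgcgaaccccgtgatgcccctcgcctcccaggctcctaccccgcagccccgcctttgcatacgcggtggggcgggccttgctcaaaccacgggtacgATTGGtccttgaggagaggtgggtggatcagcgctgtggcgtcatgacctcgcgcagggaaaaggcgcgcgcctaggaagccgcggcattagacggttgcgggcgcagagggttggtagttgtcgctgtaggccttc
Mcm6: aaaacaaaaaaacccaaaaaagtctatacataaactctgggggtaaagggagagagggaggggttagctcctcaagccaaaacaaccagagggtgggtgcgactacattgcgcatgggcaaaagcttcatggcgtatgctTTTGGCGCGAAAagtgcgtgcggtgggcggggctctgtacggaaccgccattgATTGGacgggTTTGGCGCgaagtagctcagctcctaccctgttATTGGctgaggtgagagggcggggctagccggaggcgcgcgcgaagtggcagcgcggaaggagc
Mki67: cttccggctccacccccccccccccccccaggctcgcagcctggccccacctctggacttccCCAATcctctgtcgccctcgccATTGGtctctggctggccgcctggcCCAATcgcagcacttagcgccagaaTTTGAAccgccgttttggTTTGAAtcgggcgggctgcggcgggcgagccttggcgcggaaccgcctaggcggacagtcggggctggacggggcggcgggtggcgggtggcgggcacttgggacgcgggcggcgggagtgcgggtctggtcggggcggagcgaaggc
Cdk1: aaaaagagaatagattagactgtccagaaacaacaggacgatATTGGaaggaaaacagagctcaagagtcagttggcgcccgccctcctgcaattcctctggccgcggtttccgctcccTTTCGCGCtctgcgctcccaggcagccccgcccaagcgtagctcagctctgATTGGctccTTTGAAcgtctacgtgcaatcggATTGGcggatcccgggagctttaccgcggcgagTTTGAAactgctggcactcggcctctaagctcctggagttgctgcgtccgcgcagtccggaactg
Cdc20: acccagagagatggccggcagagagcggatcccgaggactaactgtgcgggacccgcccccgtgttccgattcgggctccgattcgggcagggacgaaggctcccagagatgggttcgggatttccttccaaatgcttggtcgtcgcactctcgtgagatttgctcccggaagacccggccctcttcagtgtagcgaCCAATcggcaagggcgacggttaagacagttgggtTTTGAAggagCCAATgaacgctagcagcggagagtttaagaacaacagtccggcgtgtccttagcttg

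Mitotic windows were rich in CHR letters: 10 of 12 (83.3%) held a CHR, beside 19.2% of the 32851 mouse windows in the table, 2 of 13 S windows and 1 of 14 G1 windows. The same 10 windows also held a CCAAT box, a pairing found in 7.52% of all windows. In Cdc20 the CHR began 18 bases before the start, between CCAAT boxes at 53 and 8 bases before it. In Cdk1 it began at 15 and at 71 bases before the start, in Kif11 at 19 and in Mki67 at 98 and 116. The Ccnb1 window held a CCAAT box without a CHR, and the Birc5 window held neither. E2F sites were instead found in 6 of 13 S windows (46.2%), those of Cdc6, Cdt1, Mcm3, Mcm5, Mcm6 and Mcm7, beside 2.26% of all windows, 2 of 14 G1 windows (Cdk2 and E2f2) and 1 of 12 mitotic windows (Cdk1). In Mcm6 and Mcm5 a forward and a reverse site overlapped, which gives the 12-letter run of capitals in the Mcm6 window. The Pcna window held a CCAAT box at 87 bases before the start and no other searched letters, and the Cdkn1a window shown held none. A match is a description of these letters and no evidence of binding, and no binding was measured.

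Among the G1 genes, Cdkn1a, the CDK inhibitor p21 that also binds PCNA and is a classical p53 target, was by far the most abundant. It had 351 and 273 TPM in replicates 1 and 2 (312 ± 55.4 TPM, SD, n = 2; 68868 and 44994 counts), which was higher than 99.7% and 99.5% of protein-coding genes. It alone made up 81.0% ± 2.66 of the summed TPM of the 14 G1 genes. Cdkn1b (p27) had 5.19 and 3.52 TPM, and Cdkn2c (p18, an inhibitor of CDK4 and CDK6) had 2.93 and 2.52 TPM. Cdkn1a was thus 72.6 ± 6.97 times Cdkn1b and 114 ± 8.18 times Cdkn2c. It was also 8.49 ± 1.86 times the summed level of Cdk2, Cdk4 and Cdk6, the kinases it can bind, and 26.1 ± 6.02 times that of the D-type cyclins. On the coding scale Cdkn1a averaged 1438 ± 267 TPM. An unconfirmed gene, AC167363.2, overlaps Cdkn1a (mm10 chr17:29090976-29100727) on the opposite strand with 56.9 and 215 counts, under 1% of the count of Cdkn1a.

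The kinases and cyclins of G1 entry lay far below that inhibitor. Cdk4 had 17.9 and 18.2 TPM and Cdk6 14.5 and 16.6 TPM in replicates 1 and 2. Their cyclin partners were lower, with 7.03 and 7.68 TPM for Ccnd1, 2.56 and 2.83 TPM for Ccnd3 and 1.97 TPM in both libraries for Ccnd2. Ccnd1 was therefore the leading D-type cyclin, at 3.73 ± 0.233 times Ccnd2 and 2.73 ± 0.023 times Ccnd3, and Ccnd1 led in both libraries. Ccnd2 and Ccnd3 are not ranked, since in the second quantification Ccnd2 had 1.38 and 1.07 TPM and Ccnd3 1.22 and 1.13 TPM. Summed Cdk4 and Cdk6 stood at 2.80 ± 0.012 times the summed D-type cyclins. Counts of Ccnd2 differed (1282 and 880) where its TPM did not, and so did the share of its TPM in the 6330-base transcript Ccnd2-201 (88.3% and 66.2%). Reads at several G1 genes could be shared with neighbours, since Cdk4 overlaps Tspan31 (16.5 and 20.3 TPM), Ccnd1 overlaps LTO1 and Ccnd3 overlaps Bysl, all on the opposite strand, and the strand setting of the counting is not given in the sources used here.

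At the next step of the pathway the cyclins were far below the D-type cyclins. Ccne1 was still higher than 53.2% and 52.9% of protein-coding genes in replicates 1 and 2, and Ccne2 than 54.5% and 54.0%. Ccne1 had 0.24 TPM in both libraries, from 50 counts (95% Poisson interval 37.1 to 65.9) and 41 counts (29.4 to 55.6). Ccne2 had 0.32 and 0.31 TPM. The D-type cyclins together were 21.7 ± 1.45 times the E-type cyclins, while Cdk2, the kinase that E-type cyclins activate, had 3.40 and 3.24 TPM, more than 10 times either. Rb1, which encodes the retinoblastoma protein, had 12.8 and 11.2 TPM, and its targets diverged: E2f1 had 3.35 TPM in both libraries, while E2f2 had 0.22 and 0.25 TPM. E2f1 was 14.3 ± 1.29 times E2f2. At the bottom of the whole set stood E2f2, Ccne1, Cdc6 and Ccne2, at means of 0.235, 0.24, 0.27 and 0.315 TPM, and with 41 to 113 counts each no order among them is read. Rb1 overlaps Rcbtb2 (39.8 and 35.8 TPM) and Lpar6, and Ccne2 overlaps Ints8, all on the opposite strand.

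Pcna led the S genes as Cdkn1a led the G1 genes. It had 66.9 and 58.6 TPM in replicates 1 and 2 (62.7 ± 5.81 TPM) and made up 67.0% ± 2.95 of the summed TPM of the 13 S genes. Cdkn1a, whose product binds the PCNA clamp, was 4.96 ± 0.424 times as abundant. Pcna also serves in DNA repair. The processed pseudogene Pcna-ps2 had 51.4 and 24.6 counts beside 10012 and 7396 for Pcna. It was the only pseudogene named after a member averaging at least 10 counts, out of 6 listed.

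The helicase subunits, which work as a ring of 6, were not at equal levels. Mcm6 was highest with 5.24 and 6.04 TPM, followed by Mcm3 (4.22 and 4.29 TPM), Mcm4 (2.57 and 2.84 TPM), Mcm2 (2.27 and 2.84 TPM), Mcm5 (1.34 and 1.88 TPM) and Mcm7 (1.29 and 1.40 TPM). Mcm6 was 4.19 ± 0.178 times Mcm7. Neighbours in that order were often inseparable, as Mcm4 and Mcm2 had the same level in replicate 2, while the ends of the order did not overlap. Mcm3 is less certain: 35.3% ± 7.11 of its TPM went to transcripts that are not protein-coding, mainly the 607-base retained-intron transcript Mcm3-205. Its protein-coding transcript Mcm3-201 alone had 2.52 and 3.0 TPM. By counts, which are not divided by length, Mcm3-201 held 824 of 904 in replicate 1 and 823 of 873 in replicate 2. In the second quantification it had 77.1% and 99.1% of the TPM of Mcm3. Of the loading factors, Cdt1 had 7.28 and 6.12 TPM and Cdc6 only 0.26 and 0.28 TPM, so that Cdt1 was 24.9 ± 4.34 times Cdc6, though both proteins are needed to load the same ring. Cdt1 overlaps Gm20388, a gene on the same strand with 3711 and 3077 counts, so the split of reads between the 2 is uncertain. Mcm7 overlaps Cops6 and Ap4m1 on the opposite strand.

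Apart from Rrm1, the genes that supply nucleotides lay below the median of the S genes. Rrm1, the large subunit of ribonucleotide reductase, had 2.88 and 2.92 TPM, and Rrm2, the subunit made mainly in S phase, had 0.86 and 0.99 TPM. Rrm1 was 3.15 ± 0.282 times Rrm2. Tk1, thymidine kinase, had 0.93 and 1.36 TPM from 113 and 148 counts. Tyms, thymidylate synthase, had 0.83 and 0.80 TPM, but 80.0% ± 9.14 of that belonged to transcripts without a protein-coding label. They were led by Tyms-205, a 618-base transcript labelled as a target of nonsense-mediated decay, with 66.3% and 65.4% of the TPM. Tyms-205 is short, and it held only 25.5 of the gene's 83 counts in replicate 1 and 20.8 of 71 in replicate 2. In the second quantification its share of TPM was 54.1% and 50.3%. Rrm2, Tk1 and Tyms were thus all below Rrm1 in both libraries, at means of 0.925, 1.15 and 0.815 TPM.

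Mki67, which encodes the Ki-67 protein that coats mitotic chromosomes and is the usual stain for cycling cells, stood far above the other mitotic genes. It had 17.7 and 17.5 TPM in replicates 1 and 2 (17.6 ± 0.163 TPM; 19827 and 16031 counts), above 91.7% and 91.3% of protein-coding genes, and held 52.1% ± 3.84 of the summed TPM of the 15 mitotic genes. Its full-length 10061-base transcript Mki67-201 carried 97.8% and 95.2% of that level, and none of it was in transcripts of other biotypes. Cdk1, the mitotic kinase, had 3.48 and 4.14 TPM, and Top2a, the topoisomerase that untangles sister chromatids, had 2.93 and 3.84 TPM. Mki67 was therefore 4.66 ± 0.613 times Cdk1 and 5.30 ± 1.06 times Top2a. Part of the TPM of these lower genes lay outside coding forms: 36.1% ± 9.07 for Cdk1 and 33.7% ± 2.86 for Top2a. The protein-coding Cdk1-202 and Top2a-201 had 2.11 and 2.26 TPM and 2.01 and 2.47 TPM. TPM divides by length, so short forms weigh more in it than in counts. By counts Top2a-201 held 1165 of 1227 in replicate 1 and 1208 of 1286 in replicate 2. Cdk1-202 held 253 of 365 and 228 of 320.

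All the rest of the mitotic class fell in a narrow low band. Birc5 (survivin, of the chromosomal passenger complex) had 1.02 and 1.42 TPM, and Tpx2, the spindle assembly factor, had 1.00 and 1.39 TPM. The mitotic cyclins followed with 1.00 and 0.97 TPM for Ccna2, 0.76 and 0.87 TPM for Ccnb2 and 0.74 and 0.85 TPM for Ccnb1. Ccnb1 and Ccnb2 differed by less than their spread, and Cdk1 was 2.36 ± 0.062 times the summed B-type cyclins. Of the mitotic kinases, Aurka had 0.80 and 1.01 TPM, Aurkb 0.62 and 0.57 TPM and Plk1 0.43 and 0.55 TPM. Kif11, the motor that pushes spindle poles apart, had 0.52 and 0.57 TPM, and the checkpoint kinase genes Bub1 and Bub1b had 0.58 and 0.52 TPM and 0.40 and 0.53 TPM. Apart from Mki67, Cdk1 and Top2a, the mitotic genes, 12 with Cdc20, span means from 0.465 to 1.22 TPM on 61 to 471 counts each. Ccna2 overlaps Exosc9 on the opposite strand.

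Cdc20, the activator of the anaphase-promoting complex, was the only one of the 42 genes over 1.5-fold apart between the replicates, beside 14.0% of all 13398 genes averaging at least 10 counts. It had 61 counts (95% Poisson interval 46.7 to 78.4) in replicate 1 and 91 counts (73.3 to 112) in replicate 2, and 0.33 and 0.70 TPM. After TMM scaling, which sets the bulk of genes equal, the ratio of replicate 1 to replicate 2 was 0.588 (interval 0.416 to 0.819, counting error only). It overlaps Elovl1, with 18.3 and 24.2 TPM on the opposite strand, and 18.6% of its TPM in replicate 2 but none in replicate 1 was in transcripts of other biotypes. With DESeq2 size factors Tk1 (0.666) also passed 1.5-fold, and with library totals Cdkn1b (1.53) did. The 14.0% includes genes down to a mean of 10 counts, while the 42 genes averaged 45.5 or more, with a median of 418. The share among genes of similar depth was not computed, so the count of 1 is not read as particular to these genes.

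Smaller differences between the libraries went in both directions. Of the 42 genes, 26 were higher in replicate 2, as were 3 of 14 G1 genes, 10 of 13 S genes and 13 of 15 mitotic genes, beside 49.2% of all genes. The median ratio of replicate 1 to replicate 2 was 1.05 for G1, 0.905 for S and 0.913 for mitotic genes, and 1.00 for all genes, whose middle 50% ran from −0.21 to 0.17 in log2. The counting interval narrows as counts rise, and the share of all genes whose interval left out 1 was not computed. The numbers of intervals below are therefore not read as particular to these genes. The interval left out 1 for 18 genes. It lay above 1 for 8 of them, including Cdkn1b (1.48, interval 1.35 to 1.62), Cdkn1a (1.34, 1.32 to 1.35), the S genes Cdt1 (1.24, 1.15 to 1.33) and Pcna (1.18, 1.15 to 1.22), and Mki67 (1.08, 1.06 to 1.10). It lay below 1 for 10, including Tk1 (0.668, 0.518 to 0.858), Mcm5 (0.724, 0.632 to 0.828), Birc5 (0.725, 0.538 to 0.971), Tpx2 (0.783, 0.685 to 0.895) and Top2a (0.834, 0.770 to 0.902). The interval lay below 1 in 5 of 13 S genes and 5 of 15 mitotic genes, and in the rest of these classes it held 1 or lay above it. In the second quantification of these libraries the median ratio was 1.09 for G1, 0.953 for S and 0.992 for mitotic genes, and 1.01 over all 42, so the overall lean to replicate 2 was not kept.

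**Figure D2:**
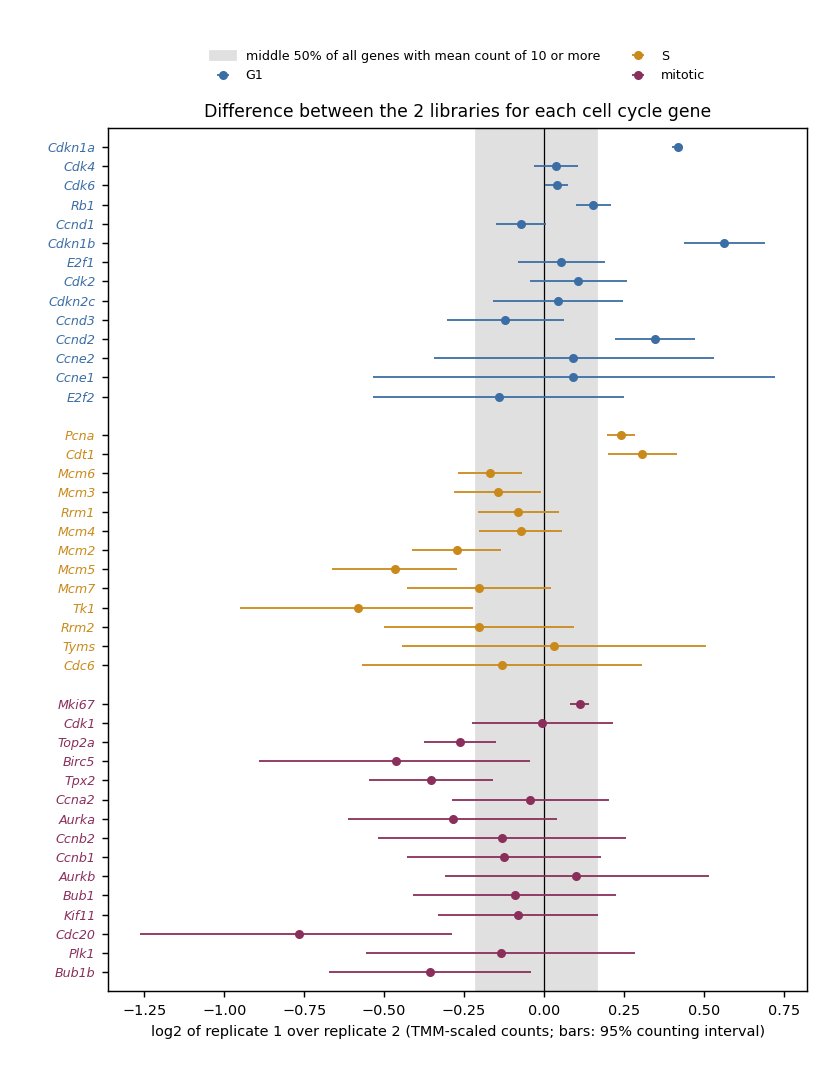
Log2 ratio of replicate 1 to replicate 2 (TMM-scaled counts) for each of the 42 genes, with bars for the 95% counting interval and a grey band for the middle 50% of all genes averaging at least 10 counts. Cdkn1a, Cdkn1b, Ccnd2, Pcna and Cdt1 lie right of the band, while Mcm2, Mcm5, Tk1, Top2a, Birc5, Tpx2, Aurka, Cdc20 and Bub1b lie left of it.

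In the second quantification, where the median ratio was 0.992 for mitotic genes and 1.01 for all members, genes of similar depth were not counted. In the first quantification, the lean to replicate 2 was also present among genes of similar depth. With a mean count of 50 to 500, 19 of 23 members were higher in replicate 2, including 12 of 13 mitotic genes, beside 49.6% of the 3786 genes in that range. Other values also moved between the libraries, most of them in the same direction. The nuclear RNAs Malat1 (158 and 799 TPM) and Neat1 (14.8 and 64.6 TPM) were higher in replicate 2, and the 10 nuclear-retained RNAs summed to 189 and 886 TPM. The marrow progenitor markers were also higher in replicate 2, in all 7 that averaged at least 10 counts. So were 5 of 7 such neutrophil precursor markers and 9 of 10 macrophage markers. The same held for 3 of 3 such erythroid and megakaryocyte markers and 5 of 5 stromal and endothelial markers, but for 0 of 2 lymphocyte markers. Over all genes averaging at least 10 counts the share was 49.2%. The part of nuclear RNA or of precursor cells in the class differences was not tested.

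The transcript tables show which form of each gene made up its level. The 42 genes have 229 annotated transcripts, and the leading transcript held a median of 90.2% of a gene's TPM and at least 90% in 21 genes. It was protein-coding in 41 of 42, the exception being Tyms. Cdkn1a-201 held 99.4% and 99.1% of Cdkn1a and Pcna-201 99.2% and 99.0% of Pcna, so the most abundant G1 and S genes, like Mki67, were nearly pure in 1 form. Transcripts of other biotypes took a median of 0.539% of a G1 gene, 10.9% of an S gene and 1.37% of a mitotic gene, and 20% or more in 5 genes: Tyms, Tk1 (39.7% ± 6.22), Cdk1, Mcm3 and Top2a. In Cdk1 the main such form was the 475-base retained-intron Cdk1-204, with 22.2% and 42.5%. All of these are shares of TPM, in which short transcripts weigh more than they do in counts.

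**Figure D3:**
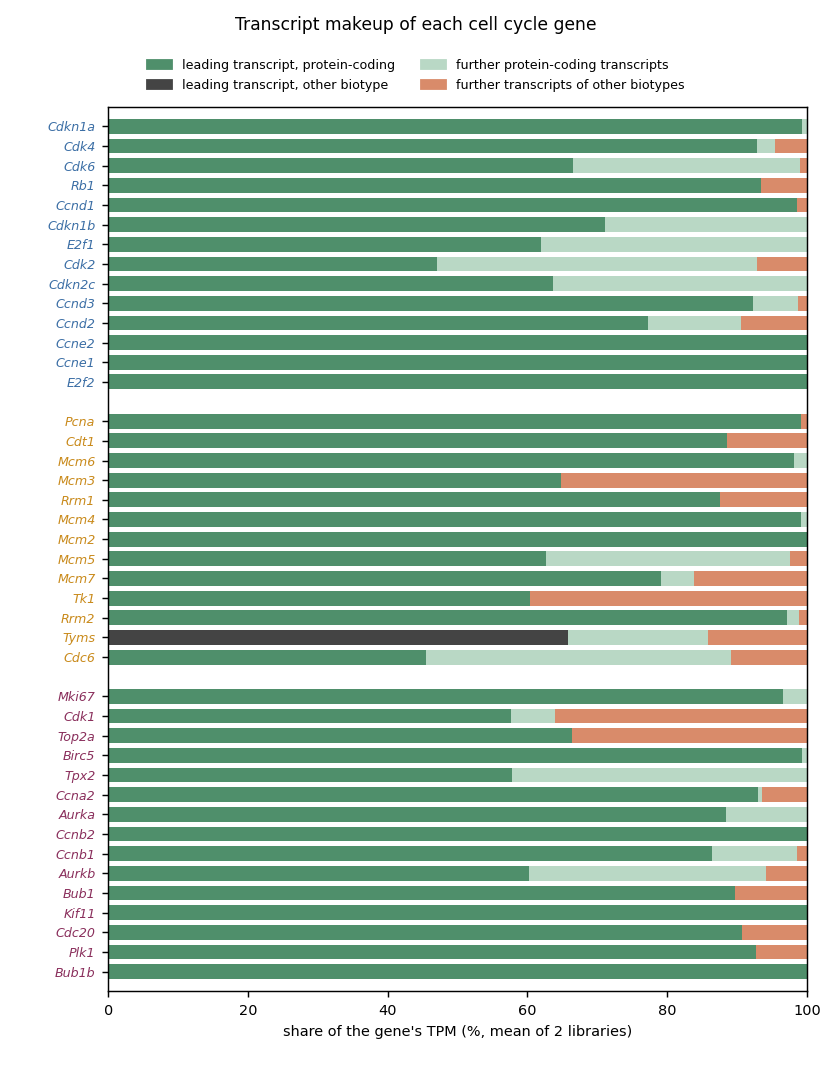
Share of each gene's TPM (percent, mean of 2 libraries) in its leading transcript and in further transcripts, split into protein-coding and other biotypes, with genes ordered by class and level. Most bars are filled by 1 protein-coding transcript, and Tyms is the gene led by a transcript of another biotype.

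A few genes divided their level between coding forms, and some of these divisions were not stable. The leading form differed between the libraries in Cdk2 and Aurkb, and Cdc6-201 and Cdc6-202 had near-equal shares of Cdc6 in both. Cdk2-202 had 54.7% and 39.3% and Cdk2-201 38.8% and 52.9%. Aurkb-202 had 67.7% in replicate 1 and none in replicate 2, where Aurkb-201 held 94.7%, while the gene had 113 and 92 counts. The posterior SD of Aurkb-202 was 15.9 and 8.37 counts on 78.4 and 0. Cdk6 was led by the 11525-base Cdk6-202 (71.1% and 62.0%), E2f1 was divided between E2f1-201 (60.3% and 63.6%) and E2f1-202 (39.7% and 36.4%), and Mcm5-203 had 78.9% and 46.3% of Mcm5. Tpx2-202 led Tpx2 with 48.0% and 67.6%, and Cdkn2c-201 led Cdkn2c with 71.7% and 55.6%.

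In wider lists of the same machinery, replication genes again had a higher median than mitotic genes. Of 43 further replication fork and origin genes, 28 reached 1 TPM, with a median of 1.52 ± 0.049 TPM, and 20 were higher in replicate 2 (median ratio 1.00). They were led by the clamp loader genes Rfc2 (11.3 and 10.6 TPM) and Rfc1 (8.17 and 7.50 TPM) and by Dnmt1 (5.89 and 7.17 TPM), which copies DNA methylation behind the fork. Gins3, part of the fork helicase, had 36 and 14 counts, a ratio of 2.21. Of 45 spindle, kinetochore and cytokinesis genes, 17 reached 1 TPM, with a median of 0.56 ± 0.049 TPM, and 34 were higher in replicate 2 (median ratio 0.910). That list was led by Cenpa, the centromeric histone H3 (19.9 and 17.4 TPM), Pttg1, securin (9.85 and 8.58 TPM), and the microtubule polymerase gene Ckap5 (6.39 and 6.97 TPM), while Ska1 had 7 and 15 counts (ratio 0.426). The share of this list at 1 TPM or more, 37.8%, was close to the 39.3% of all protein-coding genes. A few of its genes stood well above the rest, as Mki67 did among the 15.

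Levels of the regulators around these genes varied by group. Of 19 genes listed for the RB, E2F, DREAM and MYB-MuvB complexes and for related factors, 14 reached 1 TPM (median 2.16 ± 0.212 TPM). The list was led by the RB-binding Rbbp4 (10.8 TPM in both libraries), by the related factor gene Foxo3 and by the pocket protein gene Rbl2 (7.36 and 6.68 TPM). Of 20 genes of the APC/C and SCF ubiquitin ligases, which destroy cyclins and inhibitors, 18 reached 1 TPM (median 4.40 ± 0.064 TPM), led by Skp1a (24.1 and 19.8 TPM), Anapc5 and Anapc11. Of 19 p53 pathway and checkpoint genes, 17 reached 1 TPM (median 3.76 ± 0.021 TPM). Gadd45b (138 and 142 TPM), Mdm2, the ligase that degrades p53 (96.2 and 106 TPM), and Btg2 (35.4 and 30.0 TPM) led them, all below Cdkn1a. Of 5 other CDK inhibitor genes, 2 reached 1 TPM: Cdkn1c (p57), with 14.2 and 9.96 TPM, and Cdkn2d (p19), with 1.67 and 1.57 TPM, followed by Cdkn3 at 0.73 and 0.88 TPM. Cdkn1c, like Cdkn1a and Cdkn1b of the same family, was higher in replicate 1 (ratio 1.48).

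**Figure D4:**
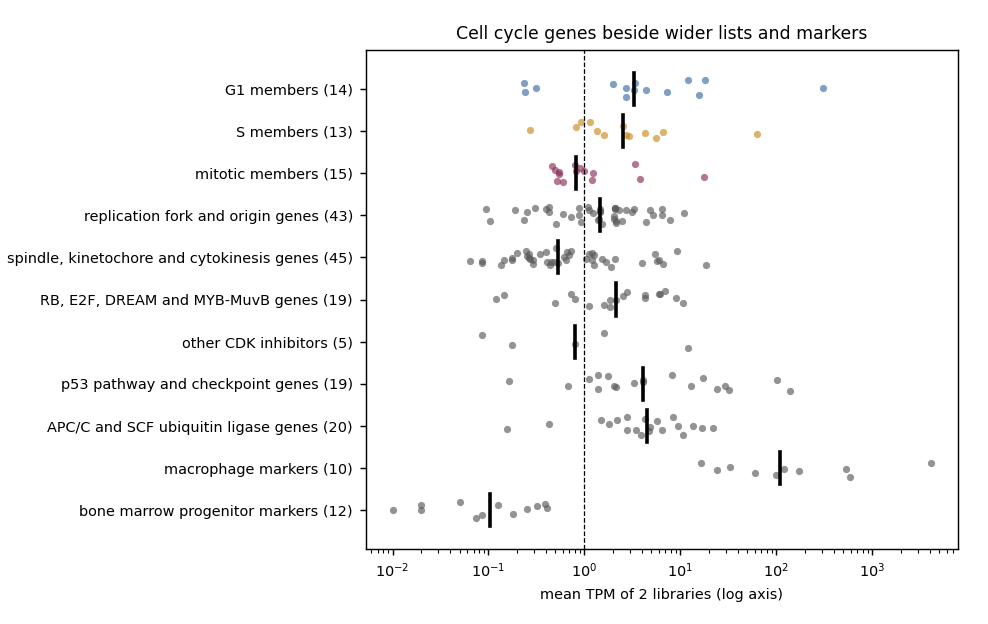
Mean TPM over the 2 libraries (log axis) of each gene in the G1, S and mitotic classes, in 6 wider pathway lists and in the macrophage and marrow progenitor marker lists, with a bar at each list's median and a dashed line at 1 TPM. The mitotic class, the spindle list and the other CDK inhibitors have medians below 1 TPM, and the progenitor markers all lie below 1 TPM.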

How the data were processed

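Total RNA, depleted of ribosomal RNA, from the cytosolic fraction of 2 macrophage libraries was analysed from deposited tables on mm10 with annotation M21, per the deposited readme files. The authors deposited expected counts and TPM per gene and per transcript, estimated from alignments to the transcriptome, with a posterior SD per value, which is treated here as a score. They also deposited a second quantification with estimated counts and TPM made directly from the reads. The quantification tools, like the strand setting, were not given in the sources used here.

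Levels are the authors' deposited TPM, and a transcript's share is its TPM over the gene's sum. Class differences use log2(TPM + 0.1). For ratios between libraries, expected counts were rounded, genes averaging at least 10 counts were kept, TMM factors were computed with edgeR 4.0.16 in R 4.3.3, and 0.5 was added. DESeq2 1.42.0 gave alternative size factors. Poisson and binomial intervals are exact, at 95%, and cover counting error only. Entries without a gene identifier (0.251% and 0.204% of counts) were left out. On simulated data with 50 genes at each fold, all averaging at least 100 counts, 98% of 2-fold changes passed 1.5-fold in this comparison of replicates. Simulated 1.5-fold changes passed in 60% upward and 52% downward, and 5.63% of 13206 unchanged genes passed. The simulated spread was smaller than that of the libraries, where 14.0% of genes passed. These rates therefore do not carry over to the libraries. Promoter windows came from RefSeq. With 1 group there was no test. Alternatives were the second quantification, the coding scale, other pseudocounts, thresholds, class placings and scalings, and each library alone. Every member could be named. From each pathway list the 3 genes of highest mean TPM were named, with any gene over 2-fold apart, and from each marker list the top 2, with Malat1 and Neat1. Pseudogenes named after a member were named if they averaged at least 10 counts. The members, classes and lists were chosen with earlier results of these data known.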

Additional observations from a re-analysis of the deposited data

How the results depend on the processing

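Of 54 alternative values for the main results, 32 kept their direction and moved by at most 1 SD between libraries, for counts 1.5-fold, and for the median ratio 0.2 in log2. The 26 genes at 1 TPM or more became 42 on the coding scale, 21 in the second quantification (whose raw TPM is on another scale) and 19 without the overlapping genes. Thresholds of 0.5 and 2 TPM gave 36 and 20. The share of all protein-coding genes was computed only for the main setting. The S minus G1 median difference (−0.38) became −0.64 with class means, −1.82 with the G1/S genes counted with S, and −0.70 both with Ccna2 counted with S and without Pcna and Mki67. The mitotic minus G1 difference (−1.91) became −1.63 in the second quantification, −1.26 with a pseudocount of 1, −1.73 with class means, −0.34 with genes at 1 TPM or more only, and −3.03 with the G1/S genes counted with S. Without the 10 genes that overlap a neighbour with 100 counts or more, an alternative chosen after seeing the data, it became −1.76. The mitotic minus S difference (−1.53) became −1.29 in the second quantification, −0.97 with a pseudocount of 1, −1.09 with class means, −1.21 with the G1/S genes counted with S, and −1.22 both with Ccna2 counted with S and without Pcna and Mki67. It reversed to 0.25 with genes at 1 TPM or more only, since that filter drops 10 mitotic genes. The count of members over 1.5-fold apart (1) became 2 with DESeq2 size factors, 2 with library totals and 3 in the second quantification (Cdc20, Tk1 and Cdkn1b). With a mean count of 100 or more it stayed at 1, but the gene was Tk1, as Cdc20 was filtered out. The median replicate ratio of the members (0.946) reversed to 1.01 in the second quantification, and the cause was not tested. Each library alone gave −0.55 and −0.21 for S minus G1, −2.01 and −1.81 for mitotic minus G1, −1.46 and −1.60 for mitotic minus S, and 26 and 27 genes at 1 TPM or more. Counting only protein-coding transcripts, also chosen after seeing the data, kept every class difference within the spread.

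On the coding scale, the second quantification gave 0.751 to 1.54 times the first for the 42 genes (median 0.998), over 1.5-fold for Bub1b alone. The shares of leading transcripts moved beyond their SD in 22 genes. Genes under 100 counts are limited by counting. No paired analysis was possible because the series has 1 group.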
